A study of Rattus norvegicus with 9 samples.

Results

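The expression of 10 lipid-laden phagocyte genes, Msr1, Cd36, Lpl, Soat1, Fabp5, Abca1, Apoe, Gpnmb, Lgals3 and Spp1, was followed in the rat brain after stroke. They were chosen by gene symbol, as genes known to be expressed by phagocytes that fill with lipid, and all 10 were among the 26276 gene names of the arrays, with 11 of the 30367 probes. Only Cd36 had 2 probes, and each gene is given here by its brightest probe. Total RNA of the infarcted hemisphere of male Sprague Dawley rats was measured at day 14 on 1-colour Agilent arrays, with 3 arrays in each of 3 groups, each array labelled as a separate replicate. Sham rats were operated without insertion of the filament and received solvent in the tail vein. I/R (ischemia/reperfusion) rats had the middle cerebral artery closed by a filament for 2 h and then reopened. Whether I/R rats received solvent injections is not stated. DHI rats had the same occlusion and reperfusion and received Danhong injection, a preparation of the herbs danshen and honghua, in the tail vein daily until day 14. The comparison of I/R with Sham addresses the injury, and that of DHI with I/R addresses the treatment.

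Phagocytes that clear dying cells and myelin take up large amounts of cholesterol and fatty acids. Scavenger receptors bring lipid in, acyltransferases store cholesterol as esters in droplets, and sterol exporters pass it to lipoproteins. Macrophages that hold many droplets are called foam cells, and lipid-laden phagocytes of this kind are known from the border and core of brain infarcts, from demyelinated tissue and from arterial plaques. In bulk tissue, fewer cells of a type and less RNA per cell cannot be told apart.

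The arrays of a group did not all stand together. The 75th percentile intensities ran from 1816 to 3464, lowest on DHI 2 (1816) and DHI 3 (2120) and highest on I/R 2 (3067) and I/R 3 (3464). All 9 arrays had 75.2 to 78.9% of probes well above background, and none had a saturated probe. DHI 1, the first array of the DHI group, lay at or above the lowest I/R array for 10 of the 10 genes, which also held for 90.8% of all probes called higher in I/R than in Sham. DHI 2 lay at or below the highest Sham array for 9 of the 10 genes (67.7% of those probes), and DHI 3 for 4 of the 10 (34.9% of those probes). I/R 3 was the lowest of the I/R arrays for 9 of the 10 genes (91.2% of those probes). The placing of DHI 1, DHI 2 and I/R 3 was therefore shared with most probes that were higher after injury, and results that rest on them are given below with and without them. Sham and I/R shared 1 slide and all DHI arrays were on a separate one, so the treatment and the slide cannot be told apart.

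Each value rests on a 60-base probe, and 5 probes that read the protein-coding part of their transcript are shown, 5′ to 3′, to make plain which stretch was measured. Positions are those of the array files on rat build rn4. The Msr1 probe lies at chr16:56293586-56293645 on the plus strand, Apoe at chr1:79003795-79003854 on the minus strand, Abca1 at chr5:70493613-70493672 on the minus strand and Spp1 at chr14:6422382-6422441 on the minus strand. The Soat1 probe spans 288 bases of the genome, chr13:71423884-71424171 on the minus strand, so it joins separate stretches of genomic sequence.
Msr1: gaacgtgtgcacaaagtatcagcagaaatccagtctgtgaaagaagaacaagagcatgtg
Soat1: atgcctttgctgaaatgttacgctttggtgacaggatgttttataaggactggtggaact
Abca1: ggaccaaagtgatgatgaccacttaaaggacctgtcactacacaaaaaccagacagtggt
Apoe: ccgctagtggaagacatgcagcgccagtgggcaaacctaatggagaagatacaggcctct
Spp1: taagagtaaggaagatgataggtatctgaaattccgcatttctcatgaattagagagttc
The other probes lie at chr4:77182198-77182257 (Gpnmb, plus strand), chr15:23338947-23339006 (Lgals3, plus strand), chr16:22533294-22533353 (Lpl, minus strand) and chr4:13525426-13525485 (Cd36, plus strand, with the dimmer Cd36 probe at chr4:13522273-13522332). The Fabp5 probe has no position in the files.

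After injury, 8 of the 10 genes rose and none fell. Levels are log2 intensities minus the array's own 75th percentile, and a gene was called changed where limma gave an unadjusted p under 0.05 and a fold change over 1.5. Of all 23747 probes tested, 20.8% were called higher in I/R than in Sham by that rule. Msr1 entered the test through the I/R arrays alone, and of the other 9 genes, which were well above background on all 9 arrays, 7 rose. The same 8 genes also had a Benjamini-Hochberg adjusted p under 0.05, which 16.4% of all probes had in that direction with the same fold change. The median log2 difference over the 10 genes was 3.28, beside -0.10 over all probes. For 8 genes, Cd36 and Lpl being the exceptions, the lowest I/R array was above the highest Sham array, which held for 26.7% of all probes.

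**Figure D1:**
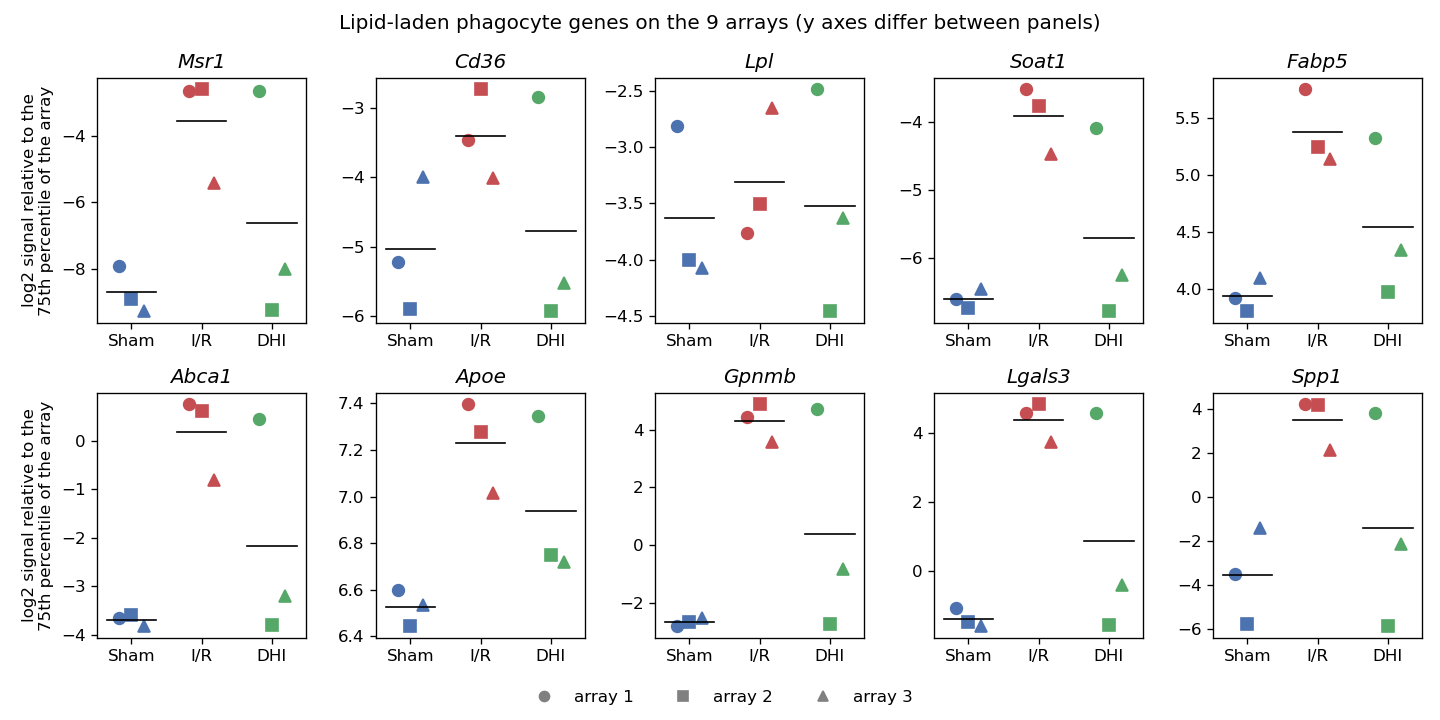
Log2 signal of the 10 genes minus each array's 75th percentile (y axis, a separate scale in each panel) by group, with 1 point per array and a bar for the mean of 3 arrays. DHI 1 (circle) lies among the I/R arrays in most panels, while DHI 2 (square) and DHI 3 (triangle) lie nearer to Sham, and Lpl shows no separation of Sham and I/R.

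Of the uptake genes, Msr1, the class A scavenger receptor of macrophages, showed the largest difference. Its log2 level was -7.92, -8.92 and -9.28 on the 3 Sham arrays, -2.67, -2.61 and -5.42 on the I/R arrays and -2.65, -9.23 and -8.00 on the DHI arrays. The signal was well above background on 1 Sham array, all I/R arrays and 1 DHI array, and I/R did not overlap with Sham. The measured I/R mean was 35.4-fold above the Sham mean (log2 difference 5.14, SE 1.60). The probe passed the filter on dim signals only through I/R, where it was high. No support is therefore drawn from its call, here or in the counts below that include it. The log2 difference was 2.07 with normexp background correction and 6.20 with array weights.

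Cd36, a scavenger receptor and fatty acid transporter, read -5.22, -5.89 and -3.99 in Sham, -3.46, -2.74 and -4.01 in I/R, and -2.84, -5.93 and -5.52 in DHI. Sham 3 reached the level of I/R 3, so the groups overlapped. The log2 difference of I/R from Sham was 1.63 (SE 0.84, 95% interval -0.31 to 3.57, limma adjusted p = 0.150) and was not called. The dimmer Cd36 probe gave 1.38 and was not called either. With only the Sham and I/R arrays in the fit, the brighter probe was called on its unadjusted p (limma adjusted p = 0.0537).

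Lpl, which releases fatty acids from lipoproteins, read -2.81, -4.01 and -4.07 in Sham, -3.76, -3.51 and -2.66 in I/R, and -2.49, -4.46 and -3.63 in DHI. All 3 groups overlapped. The log2 difference of I/R from Sham was 0.32 (SE 0.56, 95% interval -0.98 to 1.62, limma adjusted p = 0.660). Lpl was spotted 10 times on each array, and the SD over its spots was 0.046 to 0.100, well under the SD of 0.71 between the Sham arrays.

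Both storage genes rose. Soat1, which esterifies cholesterol for droplets, read -6.61, -6.74 and -6.46 in Sham, -3.51, -3.76 and -4.46 in I/R, and -4.08, -6.79 and -6.26 in DHI. I/R lay 6.46-fold above Sham (log2 difference 2.69, SE 0.63, limma adjusted p = 0.0396) without overlap, with a log2 difference of 1.38 under normexp background correction. Fabp5, a carrier of fatty acids in the cytosol, read 3.93, 3.81 and 4.10 in Sham, 5.75, 5.25 and 5.15 in I/R, and 5.32, 3.98 and 4.34 in DHI. The difference was smaller, 2.71-fold (log2 1.44, SE 0.34, limma adjusted p = 0.0396), and also without overlap.

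The efflux pair rose by very different amounts. Abca1, which moves cholesterol and phospholipid out of the cell, read -3.65, -3.59 and -3.82 in Sham, 0.75, 0.62 and -0.81 in I/R, and 0.46, -3.79 and -3.19 in DHI. The I/R mean was 14.6-fold above Sham (log2 difference 3.87, SE 1.01, limma adjusted p = 0.0396). Apoe, the main lipoprotein component that accepts this lipid in the brain and a product of astrocytes as well as phagocytes, read 6.60, 6.44 and 6.53 in Sham, 7.40, 7.28 and 7.01 in I/R, and 7.35, 6.75 and 6.72 in DHI. The rise of Apoe was 1.63-fold (log2 0.70, SE 0.21, limma adjusted p = 0.0414), just past the fold threshold, and it was the smallest among the 8 genes called.

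The genes of the phagocyte state showed the largest differences. Gpnmb, a transmembrane glycoprotein of lysosome-rich macrophages, read -2.82, -2.66 and -2.52 in Sham, 4.44, 4.87 and 3.57 in I/R, and 4.72, -2.74 and -0.84 in DHI. The I/R mean was 124-fold above Sham (log2 difference 6.96, SE 1.61, limma adjusted p = 0.0396). Lgals3, the galectin that binds glycans on damaged membranes, read -1.08, -1.49 and -1.61 in Sham, 4.60, 4.83 and 3.76 in I/R, and 4.59, -1.59 and -0.41 in DHI, so that I/R was 55.2-fold above Sham (log2 5.79, SE 1.37, limma adjusted p = 0.0396). For both genes the 3 Sham arrays lay close together, the 3 I/R arrays were far above them, and the DHI arrays covered nearly the whole distance between.

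Spp1 (osteopontin), a secreted phosphoprotein of activated macrophages, read -3.49, -5.80 and -1.44 in Sham, 4.21, 4.19 and 2.15 in I/R, and 3.81, -5.90 and -2.13 in DHI. I/R was 136-fold above Sham (log2 difference 7.09, SE 2.24, limma adjusted p = 0.0458), the largest difference of the 10 genes with all arrays. Without Sham 2 it was 5.98, below the 6.96 of Gpnmb. Spp1 was also the gene with the widest Sham spread, with an SD of 2.18 between the arrays. Its probe was spotted 10 times, and the SD over spots was 0.015 to 0.140 on an array, so the spread lay between arrays and not between spots.

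The standard errors above were raised by the DHI arrays, which enter the same fit. With only the Sham and I/R arrays, all on 1 slide, the SE of the Gpnmb difference was 0.34 in place of 1.61, and 9 genes were called, of which 8 had an adjusted p under 0.05. With any single array left out, 8 or 9 genes were called. None had an adjusted p under 0.05 without any 1 of the Sham arrays, without I/R 1 or I/R 2, or without DHI 3, fits in which 0 or 1 of all probes passed with the same fold change, against 7471 with all arrays. This loss was therefore common to the whole array, and 8 or 9 of the 10 genes stood when I/R 3, DHI 2 or DHI 1 was left out.

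**Figure D2:**
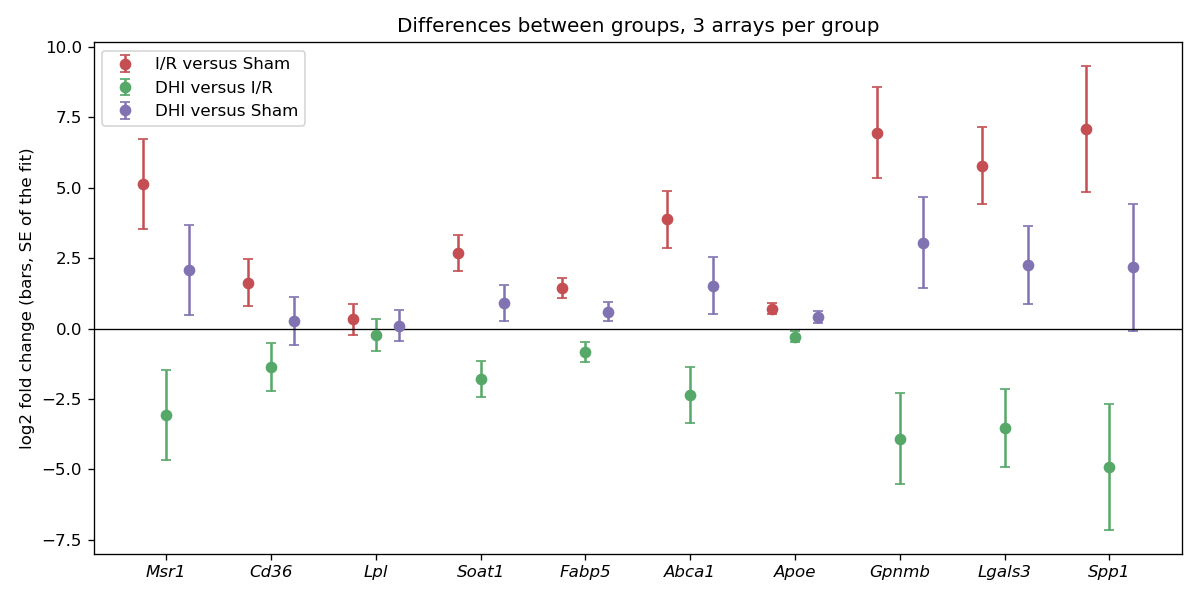
Log2 fold change (y axis) of each gene in the 3 comparisons, with bars for the standard error of the limma fit over 9 arrays. The I/R versus Sham values run from 0.32 (Lpl) to 7.09 (Spp1), the DHI versus I/R values are all below 0, and the DHI versus Sham values lie between with bars that are wide beside their size.

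Under DHI, 5 of the 10 genes were called lower than in I/R, against 10.5% of all probes, and none had an adjusted p under 0.05 in the limma fit. The other 5 genes missed the unadjusted threshold of 0.05 as well. By a t-test, the test that the study names for its calls, none of the 10 was called on the same values, and 0.737% of all probes were called lower. Over all probes, 0.00421% were called lower with an adjusted p under 0.05. The DHI and I/R arrays overlapped for all 10 genes, while 4.03% of all probes were lower without overlap. The median log2 difference over the 10 genes was -2.08, beside 0.10 over all probes.

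The genes called lower were Soat1 (log2 difference -1.80, 95% interval -3.26 to -0.33), Lgals3 (-3.53, -6.69 to -0.37), Fabp5 (-0.83, -1.62 to -0.05), Gpnmb (-3.91, -7.63 to -0.19) and Abca1 (-2.36, -4.69 to -0.03). Each had a limma adjusted p of 0.196. Spp1 had the largest difference, -4.92, but a 95% interval from -10.09 to 0.25, and was not called. Msr1 gave -3.06 (95% interval -6.76 to 0.63), Cd36 -1.36 (-3.30 to 0.58), Apoe -0.29 (-0.76 to 0.18) and Lpl -0.22 (-1.52 to 1.08). The intervals of these genes include 0, and those of Spp1, Msr1 and Cd36 also include large decreases.

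The call of this difference rested on single arrays, and its size on the DHI arrays. DHI 1 lay above the mean of the other two DHI arrays by 7.82 for Spp1, 6.51 for Gpnmb, 5.96 for Msr1, 5.59 for Lgals3 and 3.95 for Abca1 on the log2 scale. For Cd36, Soat1, Lpl, Fabp5 and Apoe the gap was 2.89, 2.45, 1.56, 1.16 and 0.61. Without DHI 1, 8 of the 10 genes were called lower than in I/R, and all 8 had an adjusted p under 0.05, beside 19.1% of all probes called lower without that array. Msr1 was among the 8, and no support is drawn from its call. Gpnmb then fell by 6.08 on the log2 scale (SE 0.58, limma adjusted p = 0.0016) and Spp1 by 7.53 (SE 1.51, limma adjusted p = 0.0096). Lpl and Apoe were not called without DHI 1, Apoe because its fold change was under 1.5 (log2 -0.49, limma adjusted p = 0.0367).

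Without DHI 2, DHI 3, I/R 1 or I/R 2, none of the 10 genes was called, and the shares of all probes called lower were 1.80, 2.13, 2.08 and 2.87%. The Gpnmb difference in those fits was -2.35, -3.30, -3.84 and -3.62. Without I/R 3, 3 genes were called (Abca1, Fabp5 and Soat1), beside 15.5% of all probes lower. Without any 1 Sham array 2 were called (Lgals3 and Soat1), beside 7.79 to 8.06% of all probes, with every DHI minus I/R difference unchanged since no Sham array enters it. No labelled property of DHI 1 sets it apart, so the result with all 3 arrays is the one that the design gives.

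**Figure D3:**
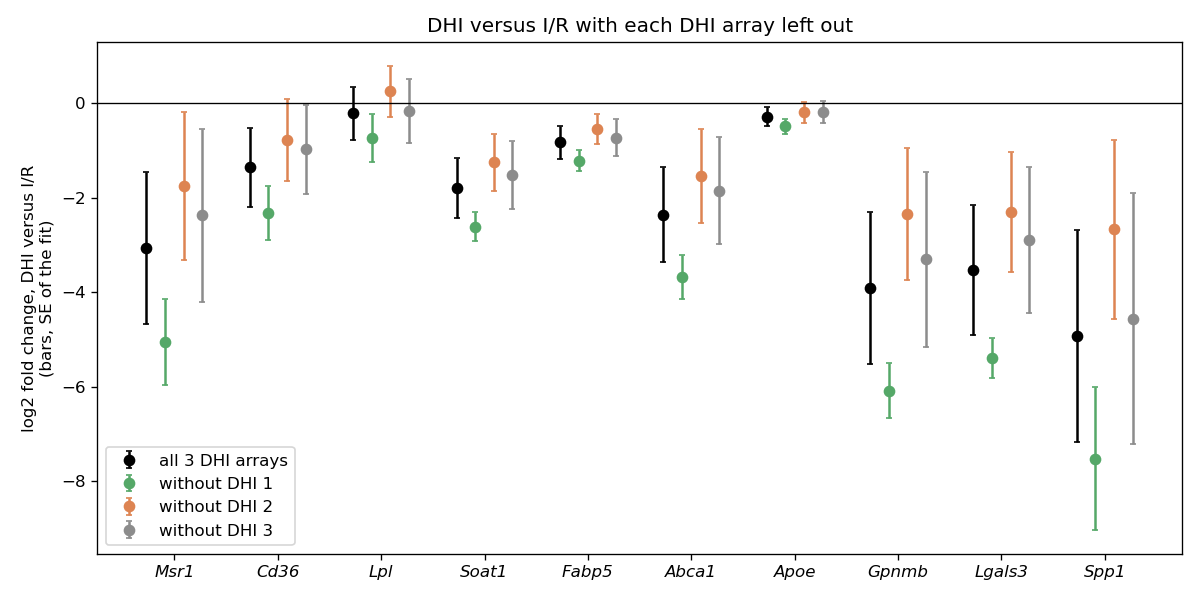
Log2 fold change of DHI versus I/R (y axis) for each gene with all 3 DHI arrays and with each DHI array left out, with bars for the standard error of the fit. Without DHI 1 the Gpnmb value is -6.08 and the Spp1 value -7.53, while without DHI 2 they are -2.35 and -2.67 with wide bars.

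None of the 10 genes was called between DHI and Sham, where 2.52% of all probes were called higher and 1.06% lower by the limma fit. None had an unadjusted p under 0.05, and no probe of the array had an adjusted p under 0.05 with a fold change over 1.5. The DHI arrays were all above the Sham arrays for 1 gene, Apoe, as for 10.3% of all probes. The log2 differences ran from 0.11 (Lpl) to 3.04 (Gpnmb), with a median of 1.20 beside 0.02 over all probes. The 95% intervals were wide: -0.67 to 6.76 for Gpnmb, -0.90 to 5.41 for Lgals3, -3.0 to 7.35 for Spp1 and -0.06 to 0.89 for Apoe, so neither a return to the Sham level nor a large remaining difference was shown. Without DHI 2, 4 genes were called higher than in Sham (Gpnmb 4.60, Lgals3 3.48, Soat1 1.44 and Fabp5 0.89 on the log2 scale, each with a limma adjusted p of 0.405), beside 7.74% of all probes. Without DHI 1 none was, and the differences of Spp1, Lpl and Cd36 were -0.44, -0.41 and -0.69.

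Genes with the pattern of Spp1 were found by the root mean square distance of their log2 levels over the 9 arrays, each gene centred on its own mean. Of the other 9 genes Gpnmb was nearest (distance 1.26), followed by Lgals3 (1.54) and Msr1 (1.67). Msr1 entered the test through I/R alone, so no support is drawn from its place. Outside the 10 genes the nearest were Scn7a, a sodium channel subunit (distance 1.14), Slfn3 (1.26), Slamf9, a receptor of myeloid cells (1.32), Clec7a, the beta-glucan receptor dectin-1 (1.33), and Zbp1, a sensor of Z-form nucleic acid (1.34). Scn7a, Slfn3, Clec7a and Zbp1 entered the test through the I/R arrays alone, where they were high, so no support is drawn from their place here. Slamf9 was well above background on all 9 arrays. Scn7a shared the wide Sham spread, with levels of -6.71, -9.38 and -5.24, which the other 4 did not show. Part of that spread lay near the floor, since -9.38 was under the dimmest signal well above background on Sham 2 (-8.86).

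Other genes of lipid handling, in lists that hold none of the 10 genes, were read in the same fit. Of 12 tested uptake receptors, 9 rose and 2 fell in I/R, beside 20.8% and 22.3% of all probes, with a median log2 difference of 1.62. The largest differences were those of Cd68, a lysosomal scavenger receptor (6.69), Olr1, a receptor for oxidised lipoprotein (5.93), and Axl, a receptor for dying cells (2.93). Against I/R, 5 of the 12 were lower and 2 higher under DHI, beside 10.5% and 11.5% of all probes.

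Of 20 genes of sterol efflux and of the liver X receptor (LXR) programme, 13 were higher and 1 lower in I/R (median 1.27), led by the lipoprotein genes Lcat (3.06), Apoc1 (2.61) and Pltp (2.45). Under DHI, 7 were lower and 1 higher than in I/R. Of 16 genes of droplet storage and breakdown, 7 rose and 2 fell in I/R (median 0.54). Cidea, a droplet protein, differed by 3.88 and Fabp7, a fatty acid carrier also found in glia, by 3.26, while Fabp4 was not well above background in Sham, with an I/R level at least 47.7-fold higher. For such probes the fold is a lower bound, taken against the dimmest signals that were well above background. They entered the test through I/R alone, where they were high, so no support is drawn from their calls. Under DHI, 5 of the 16 were lower and 2 higher than in I/R.

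Nearly the whole lysosomal list rose in I/R. There, 17 of its 18 genes were higher and none lower (median 1.67), among them the protease Ctsz (4.67), the cholesterol carrier Npc2 (3.69) and Tfec, a transcription factor of the MiT family, not well above background in Sham and at least 8.67-fold higher. Under DHI, 12 of the 18 were lower than in I/R. Of the 18, 17 were well above background on all 9 arrays. Both counts include Tfec, and no support is drawn from its part in them. The cholesterol synthesis list went the other way, with 16 of 20 genes lower in I/R and none higher (median -1.30). Among them were Hmgcs1, an early enzyme of the pathway (-2.14), and Insig1, a sterol-sensing regulator of it (-2.06), and 15 of the 20 were higher under DHI than in I/R.

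Of 18 genes known from damage-associated microglia, 15 were higher in I/R and none lower (median 2.76), with Clec7a, also not well above background in Sham, at least 138-fold higher, Ctsz at 4.67 and Ccl6, a chemokine, at 4.45. Under DHI, 14 of the 18 were lower than in I/R. Of the 18, 15 were well above background on all 9 arrays. Both counts include Clec7a, and no support is drawn from its part in them. Axl, Ctsb, Ctsd and Ctsz stand on 2 of these lists each, and Cd68 of the uptake list is also among the microglia and macrophage markers below. No list gene in the comparison of DHI with I/R had an adjusted p under 0.05. These counts rested on single arrays too, while the medians moved less. Without DHI 1, 15 of the 18 lysosomal genes and 16 of the 18 damage-associated genes were lower under DHI, beside 19.1% of all probes. Without DHI 2, DHI 3, I/R 1 or I/R 2 there were 1 or 2 in each list. In those 4 fits, where 1.80 to 2.87% of all probes were called lower, the lysosomal median was -1.01 to -1.18 against -1.29 with all arrays, and the damage-associated median -1.12 to -1.52 against -1.60. The count of cholesterol synthesis genes higher under DHI was 17 without DHI 1, beside 26.2% of all probes. It was 7 to 9 without DHI 2, DHI 3, I/R 1 or I/R 2, beside 2.15 to 4.12% of all probes. For the uptake, efflux and droplet lists the counts lower under DHI were 9, 12 and 8 without DHI 1 (19.1% of all probes). They were 3, 1 and 0 without DHI 2 (1.80% of all probes).

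**Figure D4:**
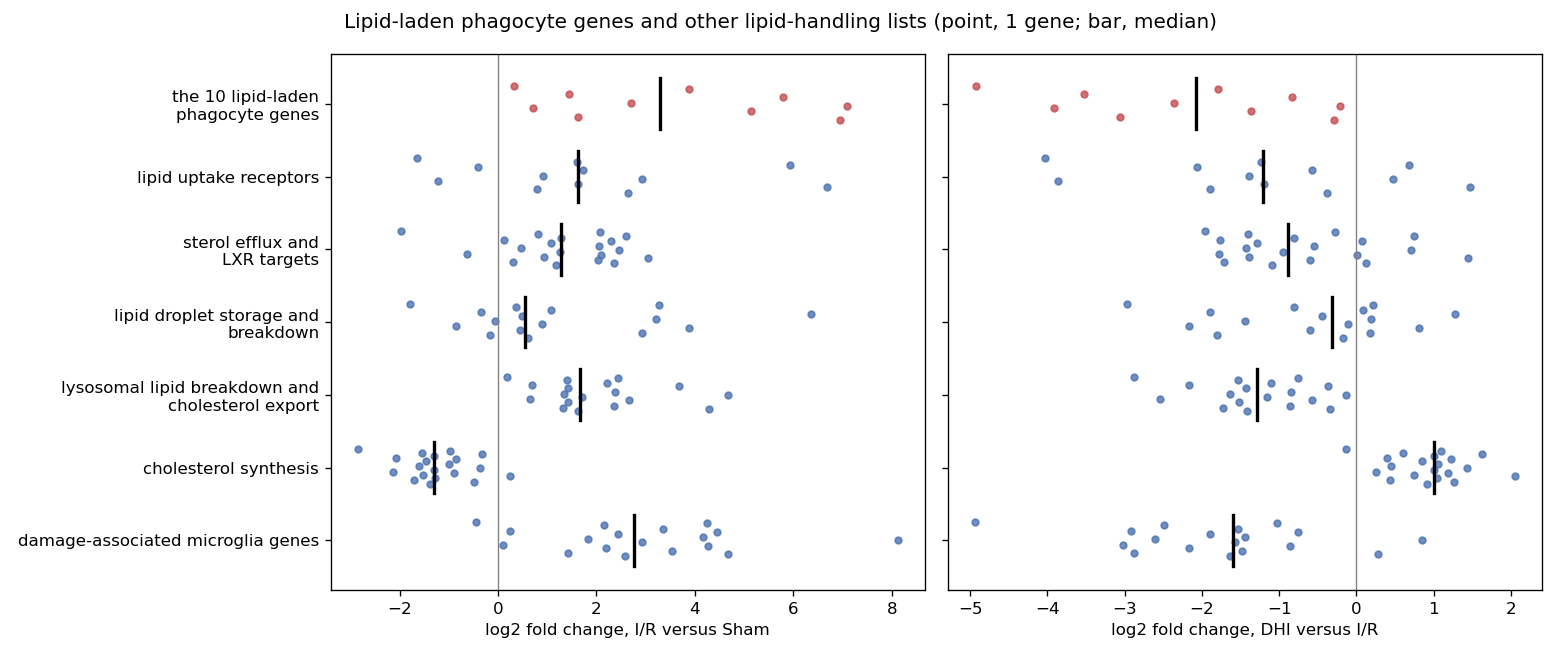
Log2 fold changes (x axis) in I/R versus Sham (left) and DHI versus I/R (right), with 1 point per gene and a bar for the median of each list. The 10 phagocyte genes have a median of 3.28 on the left and -2.08 on the right, and the cholesterol synthesis genes lie on the opposite side of 0, with medians of -1.30 and 1.00.

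Between DHI and Sham 6 genes of the 6 lists were called with all arrays, beside 2.52% of all probes called higher and 1.06% lower. In the efflux list 3 of 20 were higher (Apoc2, Apoa1 and Lcat). In the droplet list 2 of 16 were higher (Fabp4 and Fabp7), in the lysosomal list 1 of 18 (Tfeb), and in the other 3 lists none. Apoa1 entered the test through DHI alone. None of them had an adjusted p under 0.05 in the limma fit. Without DHI 2 the genes higher than in Sham were 7 of 18 in the lysosomal list, 6 of 18 in the damage-associated list, 5 of 20 in the efflux list, 4 of 16 in the droplet list and 3 of 12 in the uptake list, beside 7.74% of all probes.

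Most microglia and macrophage markers moved with the 10 genes. The markers of other cells that the tissue could hold did not all do so. Of 14 microglia and macrophage markers, 13 were called higher in I/R and none was called lower (median 3.60). Their summed level, in units of the 75th percentile of the array, was 19.4 to 23.2 in Sham and 130.2 to 322.2 in I/R, and was 178.9, 25.8 and 30.1 on DHI 1, DHI 2 and DHI 3. I/R 3 had the lowest sum of the I/R arrays and DHI 1 lay above it, the same order as for most of the 10 genes. Cx3cr1 was the marker that was not called, and it went the other way. It read 1.36, 1.90 and 1.54 in Sham, 0.93, 0.81 and 0.07 in I/R, and 0.30, 2.54 and 1.66 in DHI. Its I/R arrays all lay below its Sham arrays (log2 difference -0.998, SE 0.525, limma adjusted p = 0.156). All 14 markers were well above background on all 9 arrays, so none of the defining markers was absent in Sham. The part of this marker shift in the differences of the 10 genes was not tested.

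All 12 neuron markers were lower in I/R (median -2.54), with a summed level of 114.6 to 125.8 in Sham and 11.7 to 59.8 in I/R. On DHI 1, DHI 2 and DHI 3 the neuron sum was 38.8, 128.3 and 97.3. All 12 were well above background on all 9 arrays, so the neuronal markers of the labelled tissue were present throughout. Beside 20.8% of all probes higher and 22.3% lower in I/R, 4 of 10 astrocyte markers were higher and 2 lower, of the endothelial markers 5 of 10 were higher, of the oligodendrocyte markers 1 of 9 was higher, and of the red blood cell markers 1 of 5 was higher and 4 lower. The 4 lower red blood cell markers were not called without any 1 of the I/R arrays, Sham 2 or Sham 3, while the median of the 5 was -1.41 to -2.18 in those fits against -2.04 with all arrays. Against I/R, 4 of the 5 red blood cell markers were called higher under DHI and 1 lower (median 2.67), beside 11.5% and 10.5% of all probes. Hba-a2, Hbb, Hbb-b1 and Alas2 did not overlap between those groups, for which no share of all probes is given. Their list's summed level was 4.62, 38.6 and 19.5 on the Sham arrays, 2.87, 3.67 and 4.14 on the I/R arrays and 9.39, 49.99 and 28.8 on the DHI arrays. Choroid plexus markers, of which 2 of 6 tested were higher in I/R, had summed levels of 0.53 to 1.18 in Sham, 1.64, 3.69 and 94.7 on I/R 1, I/R 2 and I/R 3, and 138.9, 7.58 and 74.8 on DHI 1, DHI 2 and DHI 3. Their sum was thus highest on DHI 1 and, among the I/R arrays, on I/R 3, the array where 9 of the 10 genes were lowest. The part of these markers was not tested.

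Promoters were available from the RefSeq table (GRCr8) for 6 of the 10 genes: Abca1, Apoe, Cd36, Gpnmb, Soat1 and Spp1. Windows of 250 bases before to 50 after each start were searched on both strands. CACGTG, the E-box bound by factors of the MiT family, was in the Abca1 window and in 6.42% of all 33469 windows. CATGTG, the core of the M-box, was in the Gpnmb window and in 14.0% of all. It was also in the Apoe window at chr1:88485767-88486066, but not in the other Apoe windows. TGANTCA, the AP-1 site, was in the Gpnmb window and in 7.33% of all. Direct repeats of AGGTCA with any 4 bases between them (LXR type) or any 1 base (PPAR type) were in none of the 6 genes' windows and in 0.00598% and 0.0538% of all. Words this rare are missing from nearly every window, and looser forms of these sites were not searched. Their absence therefore does not show that the 6 genes lack such sites. Gpnmb, the only one of the 6 genes with more than 1 of these words, is shown for the 250 bases before its start, chr4:79340878-79341127 on the plus strand, with TGAGTCA at position -87 and CACATG, which is CATGTG on the other strand, at position -22 in capitals.
Gpnmb: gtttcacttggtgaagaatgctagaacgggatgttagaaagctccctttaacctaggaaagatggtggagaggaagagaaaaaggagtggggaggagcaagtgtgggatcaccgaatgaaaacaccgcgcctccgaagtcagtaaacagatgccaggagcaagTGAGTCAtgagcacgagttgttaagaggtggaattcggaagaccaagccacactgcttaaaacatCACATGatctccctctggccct
The matches describe these letters in these windows only, and no binding was measured.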

How the data were processed

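Cy3-labelled cRNA was hybridised to 9 single-colour arrays, 1 per sample, and the authors deposited intensity values per spot from Agilent Feature Extraction 10.7.1.1, with background already subtracted. The authors also deposited a table of normalized log2 values, used here as an alternative. The log2 of each processed intensity was taken minus the 75th percentile of the array. Control spots and outlier spots were dropped, spots of a probe were averaged, and a probe was kept where every array of some group read it well above background. The 23747 probes kept entered limma 3.58.1 (R 4.3.3) over all 9 arrays, with 6 residual degrees of freedom. Thresholds (p under 0.05, fold change over 1.5) follow the study's methods, and Benjamini-Hochberg adjustment ran over all probes. The fit was tested on simulated data with the same spread in every group. The measured spreads differed (Gpnmb SD 0.15 in Sham and 3.88 in DHI), so that test does not cover the wide DHI spread. The 10 genes, the lists and the motifs were chosen with earlier results of these data known. Besides the 10 genes, the text names the 3 genes of each list that differed most between I/R and Sham and the 5 genes nearest to Spp1, except that some list genes are not reported here by name. Single genes outside that rule (Cx3cr1, Tfeb, Apoc2, Apoa1, red blood cell markers, and those that stand on 2 lists) were named after their values were seen. Replicate numbers did not pair the samples. Alternatives were other scalings, background corrections, filters, samples and tests. The number of arrays limits the precision, and p-values cover only the spread between these samples.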

Additional observations from a re-analysis of the deposited data

How the results depend on the processing

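The direction of I/R versus Sham held for the 10 genes under every alternative that gave a value, except for Lpl, which ran from -0.0031 without I/R 3 to 0.73 without Sham 1. The Msr1 difference ran from 2.07 with normexp to 6.20 with array weights and that of Soat1 from 1.38 with normexp to 2.97 without I/R 3. Msr1 has no value where probes had to be above background on all 9 arrays. The number of the 10 genes called was 8 to 9 with 1 array left out, and the number with an adjusted p under 0.05 was 0 to 9, 5 without a filter on dim probes and 0 without scaling between arrays. In DHI versus I/R, against 5 genes called and 0 adjusted, array weights gave 8 and 8 (21.8% of all probes called lower). The fit to those 2 groups alone gave 1 called (Soat1, 4.65%), and the study's t-test gave 0 (0.737%). Leaving out 1 array gave 0 to 8 in both counts. In DHI versus Sham, against 0 called, array weights gave 2 (Gpnmb and Lgals3; 11.7% of all probes called higher), normexp gave 1 (Soat1; 5.25%), leaving out 1 array gave 0 to 4, and the adjusted count stayed at 0 with 1 array left out. The cause of these changes was not tested. Lpl turned sign in DHI versus I/R with normexp (0.027), without I/R 3 (0.11) and without DHI 2 (0.25), its range with 1 array left out being -0.74 to 0.25. It did so in DHI versus Sham with quantile normalization (-0.020), no scaling (-0.16), the deposited table (-0.017), and without Sham 2 (-0.08), Sham 3 (-0.12) or DHI 1 (-0.41). Cd36 turned in DHI versus Sham with array weights (-0.53), without Sham 2 (-0.16) and without DHI 1 (-0.69), and Spp1 without DHI 1 (-0.44). In that comparison the highest values with 1 array left out, all without DHI 2, were 0.57 for Lpl, 0.85 for Cd36 and 4.42 for Spp1.

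The replicate block gave 7 genes called in DHI versus I/R, and 8 and 0 in the other comparisons. Same-numbered arrays of different groups had deviations that correlated at -0.34 to 0.48, and 8 of 18 best matches shared a number, so the block was not used. Without scaling, the median of all probes in DHI versus I/R moved to -0.36 from 0.10, and the share of calls that were higher fell to 4.80% from 52.2%, with 45.8% under quantile normalization and 63.7% with normexp. The same share in DHI versus Sham was 70.4%, and 5.21% without scaling, 37.5% under quantile normalization and 92.9% with normexp. In I/R versus Sham it was 48.3%, and 60.9% without scaling.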
